A study of Mus musculus with 24 samples.

Results

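Broad peaks of the transcriptional regulators (TRs) ARID1B, FOXP1, and TCF7L2 in developing mouse cortex were collected from ChIP-seq peak lists. The regions were chosen by the measured width of the peaks: a peak was called broad when its end lay at least 2500 bp beyond its start, and broad peaks that overlapped each other were merged into regions. On chromosomes 1 to 19, 2061 of 311477 peaks were broad, and they gave 1084 regions, against 92808 regions when all peaks were merged. Widths and the lists that hold a broad peak are given as a description and carry no test.

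The study asked where TRs associated with autism bind in the developing cortex. Cortices were dissected from wild-type (WT) mice on a CD1 background at the embryonic stages E15.5 and E18.5, with no transgene and no treatment, and the 3 TRs were each precipitated at both stages. The 24 libraries were 12 of ChIP and 12 of input chromatin, with 2 replicates per group. The labels name 1 of the antibodies TCF4, and the name TCF7L2 is used here because the list of antibodies in the methods names that protein. Replicates had been merged before peaks were called, so there was 1 list for each TR and stage, no spread between replicates, and no test of any difference between lists. Whole cortex holds many cell types, and a change in the share of a cell type cannot be told apart from a change within cells. Of 10 cortical marker genes, 8 had a broad region at the promoter, and none of the 35 autosomal marker genes of endothelium, microglia, oligodendrocyte lineage, striatal and other GABA neurons, liver, muscle, and blood did. Over the 20780 autosomal protein-coding genes the share was 4.35%, which 0 of 35 is near, and other genes of GABA neurons that are given in the results did carry broad regions.

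ARID1B is a DNA-binding subunit of the BAF complexes, which move nucleosomes and keep promoters and enhancers accessible. FOXP1 is a forkhead transcription factor that acts mainly as a repressor and is expressed in projection neurons of the cortex, and TCF7L2 carries the output of Wnt signaling by binding beta-catenin at DNA. A protein bound at a single site usually leaves a narrow peak in ChIP-seq. A peak of several kilobases can come from many neighboring sites, from wide open chromatin, or from a stretch of DNA present in more copies than the reference genome holds, and a peak caller for narrow peaks joins signal only while it stays above the background.

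The sequence at the strongest summit differed widely among the longest and most shared regions, as 6 windows of 200 bp show. All are from the plus strand of GRCm38, with every CpG in capitals. CpG density is marked because its median differed between promoter regions and the others in the results that follow. The first lies at chr2:77933758-77933957 inside Cwc22, in the longest region, and the second at chr14:64593664-64593863 in the region over Mir124a-1hg. The third lies at chr13:83744918-83745117 in the region that holds Mir9-2. The fourth at chr6:51469878-51470077 lies in the region at the promoters of Cbx3 and Hnrnpa2b1, the fifth at chr10:80149312-80149511 lies in Midn, and the last at chr6:47650937-47651136 lies in a region with no promoter that was broad in all 6 lists, called the distal chromosome 6 region here.
Cwc22: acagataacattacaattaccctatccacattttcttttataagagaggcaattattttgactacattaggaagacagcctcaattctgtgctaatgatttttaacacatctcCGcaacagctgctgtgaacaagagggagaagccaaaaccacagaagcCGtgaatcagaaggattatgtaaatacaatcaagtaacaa
Mir124a-1hg: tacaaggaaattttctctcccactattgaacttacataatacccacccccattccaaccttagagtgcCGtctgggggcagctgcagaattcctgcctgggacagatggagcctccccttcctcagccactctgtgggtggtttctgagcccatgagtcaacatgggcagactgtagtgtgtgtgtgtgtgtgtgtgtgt
Mir9-2: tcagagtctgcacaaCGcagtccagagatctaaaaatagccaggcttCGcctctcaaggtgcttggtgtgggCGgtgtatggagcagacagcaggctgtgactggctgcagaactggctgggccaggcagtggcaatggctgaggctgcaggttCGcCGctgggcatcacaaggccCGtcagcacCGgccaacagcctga
Cbx3 and Hnrnpa2b1: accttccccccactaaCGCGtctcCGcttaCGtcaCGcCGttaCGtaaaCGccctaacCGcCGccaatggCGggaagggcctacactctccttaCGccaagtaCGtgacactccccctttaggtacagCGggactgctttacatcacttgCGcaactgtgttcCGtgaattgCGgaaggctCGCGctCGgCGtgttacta
Midn: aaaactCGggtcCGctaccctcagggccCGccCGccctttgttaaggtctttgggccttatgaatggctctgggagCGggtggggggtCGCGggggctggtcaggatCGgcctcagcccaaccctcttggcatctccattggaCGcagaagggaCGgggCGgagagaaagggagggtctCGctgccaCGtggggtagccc
distal chromosome 6 region: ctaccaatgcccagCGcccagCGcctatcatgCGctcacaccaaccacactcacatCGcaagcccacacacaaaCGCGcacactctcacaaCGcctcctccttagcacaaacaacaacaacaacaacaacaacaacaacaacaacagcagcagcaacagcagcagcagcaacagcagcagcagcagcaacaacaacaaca
The window of Cbx3 and Hnrnpa2b1 held 21 CpGs and that of Midn 13, whereas those of Mir9-2 and of the distal chromosome 6 region held 7 each, that of Cwc22 held 2, and that of Mir124a-1hg held 1. The regions of Cwc22, Mir124a-1hg, and Mir9-2 overlapped a promoter too, so few CpGs in a summit window do not mark a region without a promoter. In the distal chromosome 6 region, 48.5% of the window was masked as repeat in the reference, and runs of a 3-base repeat fill its second part.

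The number of broad peaks differed more between lists than the number of peaks did. At E15.5, 313 of 70709 ARID1B peaks (0.443%), 766 of 63281 FOXP1 peaks (1.21%), and 220 of 32579 TCF7L2 peaks (0.675%) were broad. At E18.5 the counts were 153 of 67787 for ARID1B (0.226%), 31 of 24526 for FOXP1 (0.126%), and 578 of 52595 for TCF7L2 (1.1%). Broad peaks of ARID1B and FOXP1 were thus fewer at E18.5 than at E15.5, and those of TCF7L2 were more numerous. The depth of the smaller library behind each list, recovered from the tie between fold and p-value, moved with these counts within each TR. It was 80.7 M reads for ARID1B at the earlier stage and 57.3 M at the later one, 64.5 M and 26.3 M for FOXP1, and 60.1 M and 76.1 M for TCF7L2. Depth and stage cannot be told apart for any TR.

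**Figure D1:**
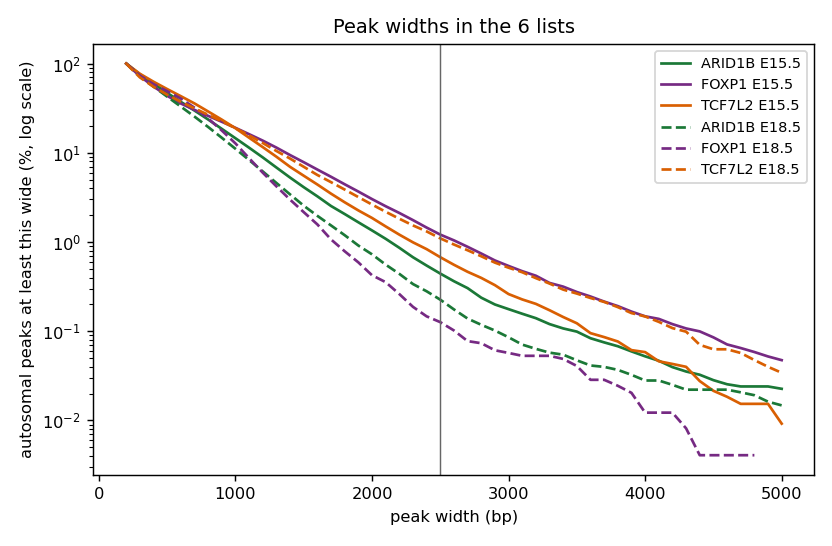
Share of autosomal peaks (vertical axis, percent, log scale) that were at least as wide as the value on the horizontal axis (bp), for the 6 lists, with solid lines for E15.5, dashed lines for E18.5, and a gray line at 2500 bp. At that line FOXP1 at E15.5 (1.21%) and TCF7L2 at E18.5 (1.1%) lie highest and FOXP1 at E18.5 (0.126%) lowest, and no curve shows a step there.

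Nothing in the width distribution sets broad peaks apart at the threshold, as the plot of widths shows. FOXP1 at E15.5 had 152 peaks from 2400 bp up to the threshold and 106 from there up to 2600 bp, and TCF7L2 at E18.5 had 113 and 85. The 3 ARID1B peaks just inside the threshold at E15.5 were 2503, 2506, and 2507 bp wide with folds of 7.21, 5.35, and 8.90 over background, and the 3 just outside were 2499, 2499, and 2496 bp wide with folds of 5.70, 7.13, and 16.9. The median peak was 437 to 519 bp wide depending on the list, and the median broad peak 2834 to 2946 bp. Peaks of 5000 bp or more numbered 30 for FOXP1 and 16 for ARID1B at E15.5 and 18 for TCF7L2 at E18.5, and there was none for FOXP1 at E18.5. Broad peaks were also taller in the median than all peaks of their list. Their median fold enrichment (reads at the summit over the background) was 11.4 for FOXP1 at E15.5, where the median of all peaks was 4.05, and 7.04 for ARID1B at E15.5, where it was 3.84. Peaks of 1000 bp to under 2500 bp were already taller than all peaks, with medians of 9.87 and 5.79 in the same lists. For FOXP1 at E18.5 the medians were 10.1 for broad peaks and 9.83 for that class.

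Broad signal of more than 1 TR at a place was common. Of the 1084 regions, 602 (55.5%, 95% Wilson interval 52.6 to 58.5%, counting error only) were broad in 1 list, 212 in 2, 133 in 3, 84 in 4, 43 in 5, and 10 in all 6. By TR, 332 regions were broad for FOXP1 alone, 216 for TCF7L2 alone, and 90 for ARID1B alone, while FOXP1 and TCF7L2 shared 187, ARID1B and FOXP1 60, ARID1B and TCF7L2 19, and all 3 TRs 180. Most regions that were broad in a single list held narrower peaks in the others. In 1024 regions (94.5%) each of the 6 lists had a peak of some width, and a wide region meets other peaks more easily than a narrow one. Over all FOXP1 peaks of E15.5, whatever their width, 61.3% met a TCF7L2 peak of E18.5 and 34.1% a FOXP1 peak of E18.5. Of the 330 regions broad in FOXP1 at E15.5 alone, all 330 held a TCF7L2 peak at E18.5, with a median width of 1756 bp, and 324 held a FOXP1 peak at E18.5, with a median of 1026 bp.

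The overlap between lists was one-sided where the lists differed in size. At TCF7L2 broad peaks of E15.5, 86.8% overlapped a broad TCF7L2 peak at E18.5, but only 33.2% of the broad E18.5 peaks overlapped one at E15.5. Of the 31 FOXP1 broad peaks at E18.5, 28 (90.3%) overlapped a broad FOXP1 peak at E15.5, against 28 of 766 (3.66%) in the other direction. A broad peak of FOXP1 at E15.5 often met 2 or more peaks of another list. This was so for 65.9% of those with any FOXP1 peak of E18.5, and for 58.0% to 77.5% of those with any peak of ARID1B or TCF7L2. For ARID1B, 36.1% of the 313 broad peaks of E15.5 overlapped a broad peak at E18.5 and 75.2% of the 153 of E18.5 overlapped one at E15.5.

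Most broad regions lay at promoters, defined as the 2000 bp upstream of a transcription start site (TSS) in GENCODE vM21. A promoter was overlapped by 907 of the 1084 regions (83.7%, interval 81.4 to 85.8%), 882 regions had a TSS inside, 838 touched the promoter of a protein-coding gene, and 97 those of 2 or more. Counted by peak, 67.4% to 92.3% of broad peaks overlapped a promoter, depending on the list. The shares were 56.7% to 93.0% for peaks of 1000 bp to under 2500 bp and 19.5% to 49.9% for those under 1000 bp. The broad regions covered 3.61 Mb in all. Of their bases, 36.5% were promoter, 28.4% exon, 25.2% intron, and 9.91% intergenic, whereas over all merged peaks the shares were 19.1%, 16.8%, 38.6%, and 25.5%. A long interval meets a promoter more easily than a short one, so the summits were examined too. The summit lay within 1000 bp of a TSS for 54.6% of the broad ARID1B peaks at E15.5, and for 54.8% of the peaks of 1000 bp to under 2500 bp. For TCF7L2 at E15.5 the shares were 84.1% and 83.1%, and for FOXP1 at E15.5 they were 79.4% and 73.8%. Measured at the summit, broad peaks of ARID1B at both stages and of TCF7L2 at both stages thus lay within 3 percentage points of the class below, while both classes lay far above the peaks under 1000 bp, for which the share was between 19% and 51.8%. FOXP1 at E18.5 went the other way, with 71.0% (22 of 31, interval 53.4 to 83.9%) of broad and 92.1% of mid-sized peaks.

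**Figure D2:**
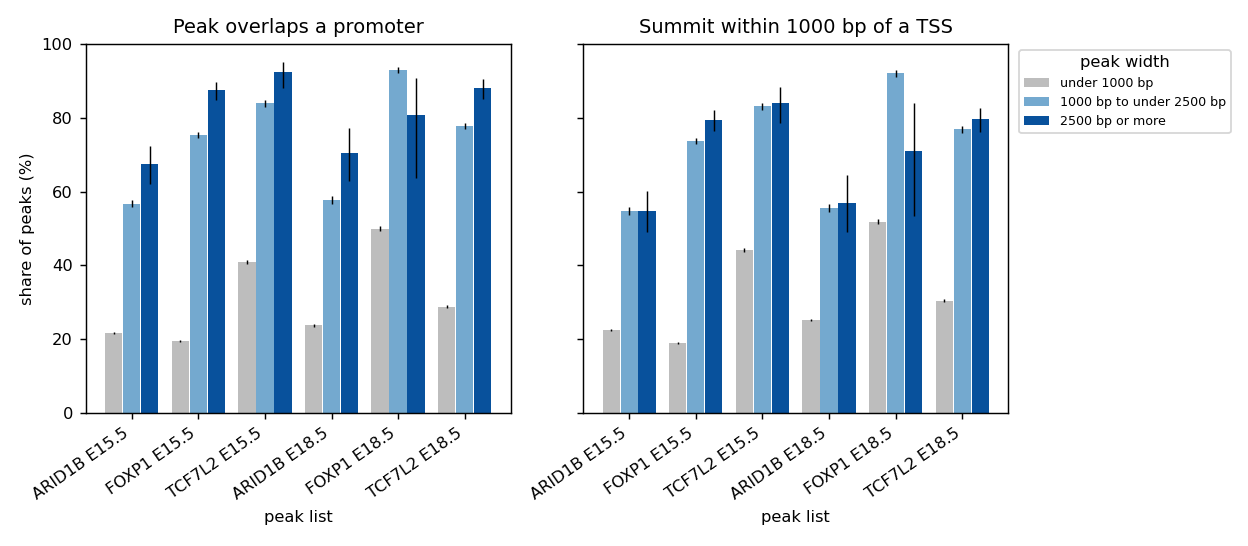
Share of peaks (percent) that overlapped a promoter (left) and share whose summit lay within 1000 bp of a TSS (right), by list and peak width, with bars for the share and black lines for 95% Wilson intervals. Peaks of 2500 bp or more exceed those of 1000 bp to under 2500 bp in 5 lists on the left, while on the right ARID1B at E15.5 is level (54.6% and 54.8%), and peaks under 1000 bp are lowest in each list on both sides.

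The sequence of the regions followed this split. Promoter regions had a median CpG ratio (observed CpGs over those expected from base composition) of 0.664 and 55.4 CpGs per kb. The 177 regions at no promoter had 0.292 and 17.4. A ratio of at least 0.6, typical of CpG islands, was reached by 580 of the 907 promoter regions (63.9%) and by 20 of the 177 others (11.3%). Regions broad for ARID1B alone stood on the low side, with a median of 0.275 over 90 regions, and 29 of them (32.2%, interval 23.5 to 42.4%) were at a promoter. The corresponding shares were 302 of 332 for FOXP1 alone (91.0%) and 191 of 216 for TCF7L2 alone (88.4%). Most ARID1B peaks of any width also lay away from promoters, with 18957 of 70709 at a promoter at E15.5 and 18677 of 67787 at E18.5. At E15.5 the median CpG ratio was 0.275 for ARID1B peaks under 1000 bp and 0.527 for those of 1000 bp to under 2500 bp. The low values are thus not particular to regions broad for ARID1B alone. Of the 61 regions that were broad for ARID1B alone and at no promoter, 40 overlapped a gene, their median distance to a TSS was 12009 bp, and 37 had a peak in each of the 6 lists.

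Around the TSS, broad peaks of FOXP1 and TCF7L2 at E15.5 reached farther into the gene than upstream of it. In broad peaks whose TSSs were all on 1 strand, the median reach was 1247 bp upstream and 1761 bp downstream for FOXP1 at E15.5 (461 peaks), and 302 of them (65.5%) reached farther downstream. TCF7L2 was alike at both stages, with 65.6% of 131 peaks at E15.5 and 66.5% of 340 at E18.5. ARID1B was closer to even, with 51.4% of 142 peaks at E15.5 and 55.9% of 68 at E18.5, and so was FOXP1 at E18.5, with 57.9% of 19 broad and 54.1% of 2013 mid-sized peaks. The same split was present in peaks of 1000 bp to under 2500 bp, of which 65.7% for FOXP1, 65.6% for TCF7L2, and 55.4% for ARID1B reached farther downstream at E15.5.

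**Figure D3:**
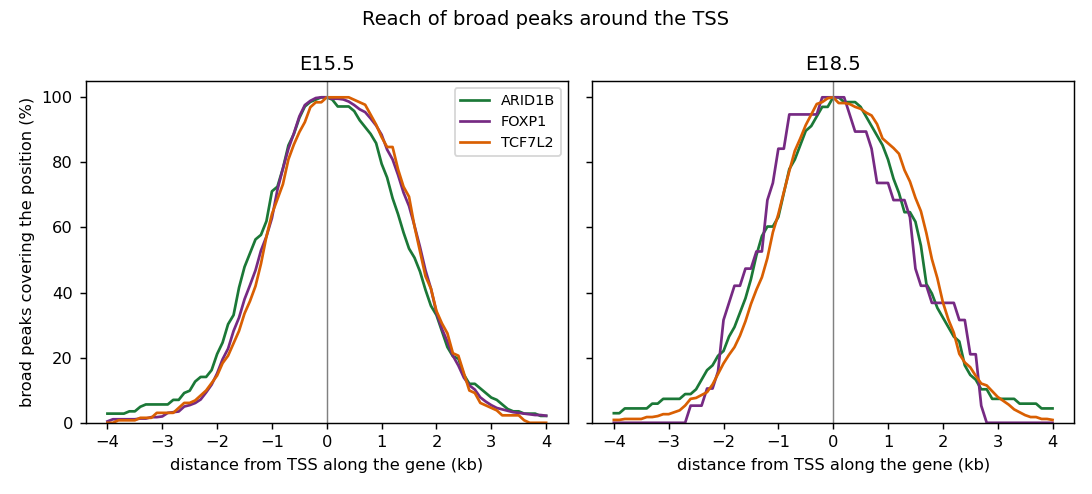
Share of broad peaks (percent) that covered each position around the TSS nearest to the summit (kb, positive values within the gene), for the 3 TRs at E15.5 (left) and E18.5 (right), over broad peaks with TSSs on 1 strand. The curves of FOXP1 and TCF7L2 at E15.5 extend farther to the right than to the left (medians of 1761 and 1743 bp against 1247 and 1183 bp), and the curve of FOXP1 at E18.5 rests on 19 peaks.

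Short motifs were counted in the 200 bp around the summits on both strands, as letters and not as binding sites. The GC box GGGCGG, which SP and KLF proteins recognize, was held by 57.3% of the broad FOXP1 windows at E15.5 and by 18.2% of the windows of all FOXP1 peaks of that stage. For TCF7L2 at E18.5 the shares were 57.4% and 23.2%, and for ARID1B at E15.5 they were 37.1% and 15.2%. Peaks of 1000 bp to under 2500 bp were closer to the broad ones than to all peaks. Their shares were 49.5% for FOXP1 at E15.5, 51.6% for TCF7L2 at E18.5, and 34.1% for ARID1B at E15.5. FOXP1 at E18.5 showed no excess, with 35.5% of broad (11 of 31) and 36.1% of all windows. Among FOXP1 peaks at promoters the shares at E15.5 were 61.3% of broad, 59.8% of mid-sized, and 43.1% of all peaks. At promoters they were 60.7%, 59.3%, and 42.9% for TCF7L2 at E18.5. For ARID1B at E15.5, broad peaks at promoters lay below mid-sized ones, with 46.0%, 51.9%, and 39.5% in the same order. The E-box CAGATG, which proneural proteins such as NEUROD2 recognize, went the other way for FOXP1 at E15.5, with 8.88% of broad and 22.2% of all windows. At regions without a promoter it was in 40.2% of the 102 broad ARID1B windows of E15.5 (interval 31.2 to 49.9%) and in 34.4% of all such ARID1B windows. For ARID1B at E18.5 these shares were 35.6% and 33.9%. Broad windows without a promoter were lower for FOXP1 at E15.5 (18.75% and 27.1%) and for TCF7L2 at E18.5 (10.1% and 24.6%). The forkhead motif TGTTTAC was rare in both, with 2.09% of broad and 2.89% of all FOXP1 windows at E15.5. The TCF/LEF motif ATCAAAG was in 1.90% of broad and 2.58% of all TCF7L2 windows at E18.5. Broad and other windows differ in base composition, and its part in these shares was not tested.

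The longest region, chr2:77896432-77943031 (46600 bp), lay across Cwc22, a spliceosome-associated gene. The widest ARID1B peaks there were 32873 bp (E15.5) and 29186 bp (E18.5), against 11079 and 4338 bp of FOXP1 and 3676 and 3752 bp of TCF7L2. ARID1B thus had the widest peaks at both stages, and all 6 lists passed the threshold. It was the longest of 11 regions within 154500 bp (chr2:77872728-78027227), which together held 118409 bp and covered 97.0% of Cwc22. These regions included those of 14152 bp and 13718 bp, next in length after it, and the region of 8375 bp over the Cwc22 promoter, with a fold of 35.9 for FOXP1 at E15.5. Median CpG ratio in this group was 0.189, and 21.6% of the bases (median over its regions) were masked as repeats. Segments of this locus are known to vary in copy number among mouse strains. The copy number in these CD1 animals was not tested, and the peaks were called against a constant background, in which the input does not enter locally.

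The 10 regions broad in all 6 lists differed in sequence, and those over Sfi1 were rich in repeats, where the median of all broad regions was 10.8% masked. The regions over Sfi1 (chr11:3184208-3190775 and chr11:3190904-3197228), a centrosome gene, had widths of 4210 to 6568 bp and of 3509 to 6325 bp across the lists, with 42.9% and 38.5% of their bases masked as repeats. The region over Gm42418 and Gm26917 (chr17:39842857-39847268), non-coding genes known to hold sequence like that of ribosomal RNA, was 3856 to 4404 bp wide in each list, had 4.83% of its bases masked and a CpG ratio of 0.947, and held the strongest broad TCF7L2 peaks of both stages, with folds of 37.1 and 39.2. The region at chr6:47646635-47651692, 9492 bp from the nearest TSS (Gm25283) and 51294 bp from that of Ezh2, the nearest coding gene, was the only one of the 10 without a promoter. Its widths of 3897 to 5040 bp differed little between lists, and its fold of 46.5 for FOXP1 at E18.5 was the highest among the broad peaks of that list. Another 2 regions were at the CpG-rich promoters of Cbx3 and Hnrnpa2b1 (2557 to 3014 bp, CpG ratio 0.967) and of Ppp2r3d (3241 to 3603 bp, CpG ratio 0.875), which encode a heterochromatin protein, an RNA-binding protein, and a phosphatase subunit. The last 2, at Midn (2841 to 5786 bp), whose product takes short-lived nuclear proteins to the proteasome, and Sema5b (2628 to 4110 bp), an axon guidance gene, had their narrowest peak in FOXP1 at E18.5.

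**Figure D4:**
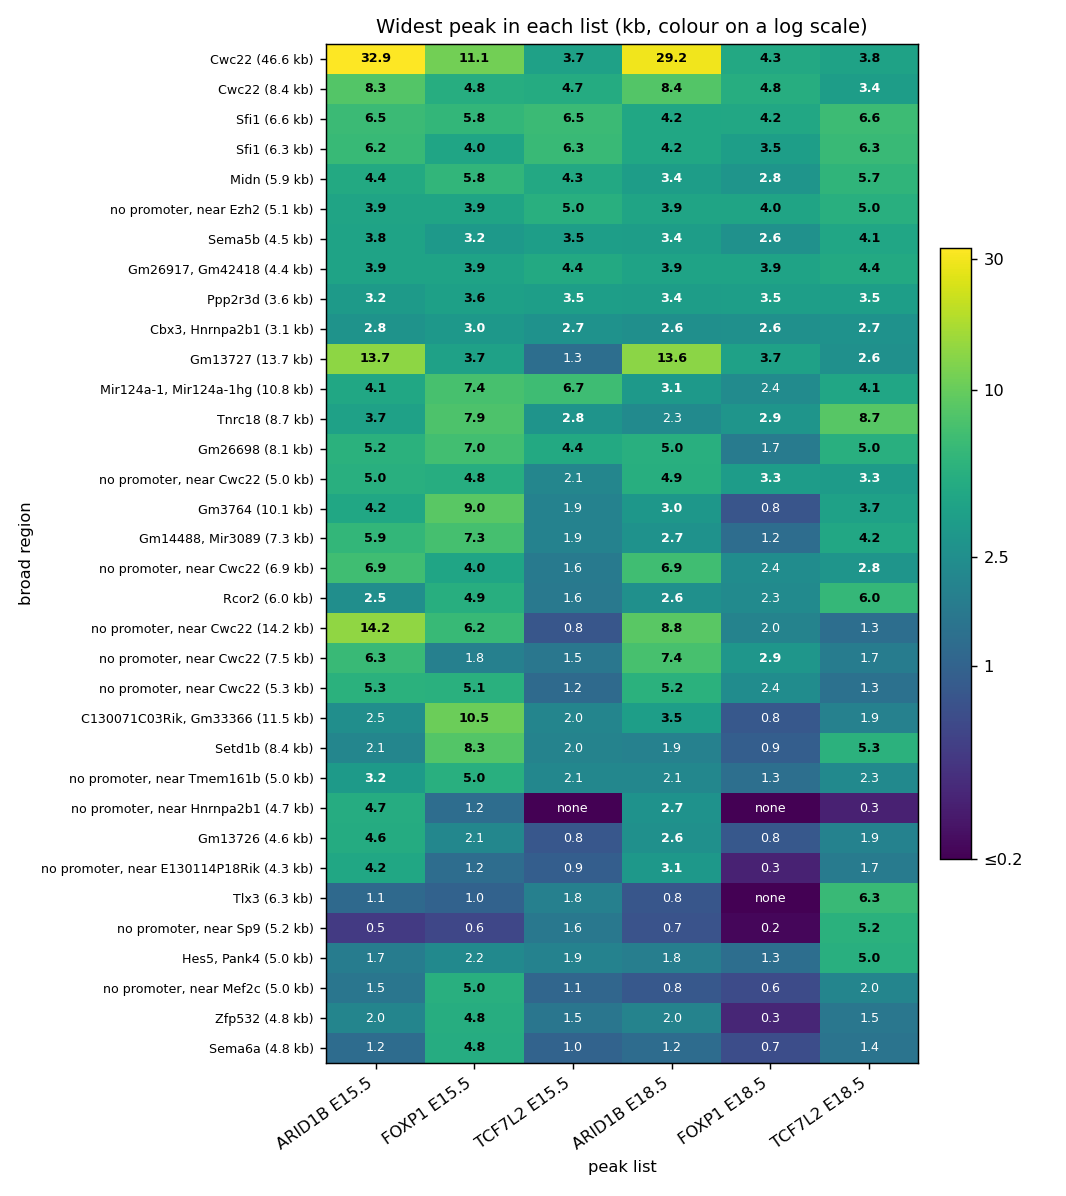
Width in kb of the widest peak that each of the 6 lists (columns) had in 34 named regions (rows, with the promoter genes or the nearest coding gene and the region length), on a log color scale, with values of 2.5 kb or more in bold and "none" where a list had no peak. The upper 10 rows are broad in every list, the row near Ezh2 is the distal chromosome 6 region, the Cwc22 rows are widest for ARID1B (32.9 and 29.2 kb in the first row), and the Tlx3 row is broad for TCF7L2 at E18.5 alone (6.3 kb).

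Of the 10 longest regions, 2 held genes of neuronal microRNAs and 4 were in the group around Cwc22. miR-9 and miR-124 are abundant in developing neurons, where they repress regulators of progenitor and non-neuronal fates. The region over Mir124a-1hg (chr14:64585752-64596520, 10769 bp) held the whole of Mir124a-1 and Mir3078. The widest peaks of E15.5 there were 4139 bp (ARID1B), 7436 bp (FOXP1), and 6708 bp (TCF7L2), and those of E18.5 were 3123, 2351, and 4096 bp. All but FOXP1 at E18.5 were broad. The region with Mir9-2 (chr13:83735448-83746947, 11500 bp) was broad for FOXP1 at E15.5 (10453 bp) and ARID1B at E18.5 (3521 bp), with widths of 2491 bp for ARID1B at E15.5, just under the threshold, and 813 to 2046 bp in the rest. It was 1 of 5 regions within 34680 bp around C130071C03Rik. The regions of Mir9-3 (chr7:79504122-79507024) and its host gene Mir9-3hg (chr7:79497341-79502254) were likewise in a group of 5, within 40240 bp. The region of Mir124a-3 (chr2:180892505-180895536) was 2547 to 3016 bp wide in 5 lists and 1613 bp in FOXP1 at E18.5.

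In all, 21 of the 2054 autosomal miRNA genes lay wholly inside a broad region. A mature sequence of RefSeq (GRCm38.p6) was matched for 15 of them by symbol, with 24 different sequences and 24 seeds, so that no 2 different mature miRNAs in this set shared a seed. The 4 of interest for neural development are shown with the seed (bases 2 to 8) in capitals, which is the part that pairs with targets.
miR-9-5p: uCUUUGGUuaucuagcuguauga
miR-9-3p: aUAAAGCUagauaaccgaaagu
miR-92b-3p: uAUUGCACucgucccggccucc
miR-219a-5p: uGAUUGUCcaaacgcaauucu
The miR-9 arms were encoded in both Mir9-2 and Mir9-3. Mir92b (chr3:89226430-89228932, beside Mtx1 and Muc1) and Mir219a-1 (chr17:34023911-34026622, beside Ring1) were in regions broad for TCF7L2 at E18.5 alone, of 2503 and 2712 bp.

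Genes that specify cortical neurons carried broad regions often. The promoter of 37 of 50 cortical regulators (74%, interval 60.4 to 84.1%) was overlapped by a broad region, where 4.35% of all autosomal protein-coding genes (904 of 20780) and 7.76% of those with a promoter peak in all 6 lists (869 of 11203) were. The list was put together with earlier results of these data known, so its share is a description. Of the 37, 32 were broad in FOXP1 at E15.5, 23 in TCF7L2 at E18.5, 12 in ARID1B at E15.5, and none in FOXP1 at E18.5. Over all 1084 regions, 757 were broad for FOXP1 at E15.5, 573 for TCF7L2 at E18.5, 311 for ARID1B at E15.5, and 27 for FOXP1 at E18.5. The counts of cortical regulators for ARID1B at E15.5 and for FOXP1 at E18.5 are thus near the shares over all regions.

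**Figure D5:**
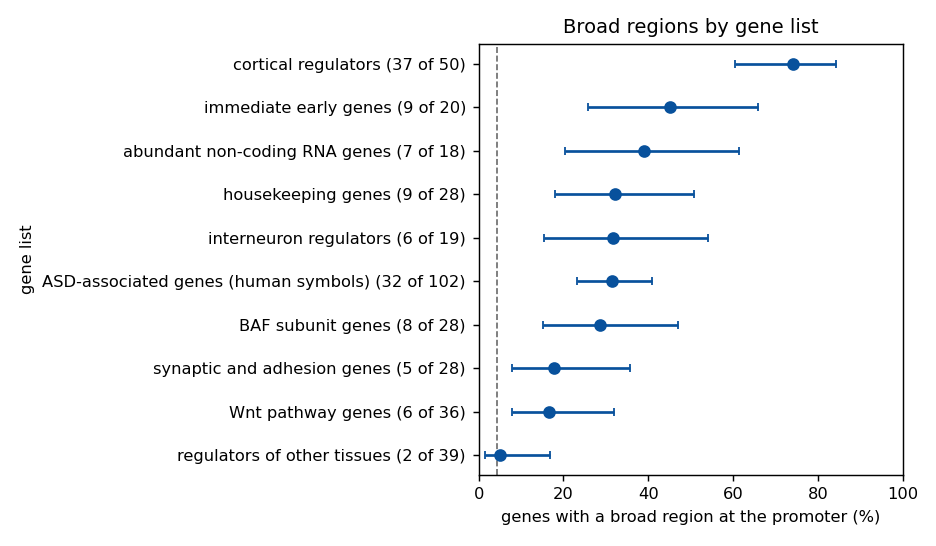
Share of autosomal genes (percent) with a broad region at the promoter in 10 gene lists, with points for the share, lines for 95% Wilson intervals, and a dashed line at the 4.35% of all protein-coding genes. Cortical regulators lie highest (37 of 50) and regulators of other tissues (2 of 39) on the dashed line.

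Sox11 (chr12:27340721-27344671), a factor of newborn neurons, was broad in 5 lists. Its E15.5 widths were 3264 bp (ARID1B), 3951 bp (FOXP1), and 3358 bp (TCF7L2), with 2560, 1718, and 3285 bp for the E18.5 lists. FOXP1 at E18.5 was the only list under the threshold there. Neurod2 (chr11:98324341-98331050), a proneural gene of excitatory neurons, was covered over 100% of its length. Its E15.5 widths were 2971, 3640, and 2689 bp and those of E18.5 were 1447, 1147, and 4127 bp, so that TCF7L2 was the only TR broad there at the later stage.

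Genes of deep layer identity differed among themselves. Bcl11b (chr12:108001727-108006814), which specifies corticospinal neurons, had a 4812 bp FOXP1 peak at E15.5 and a 5004 bp TCF7L2 peak at E18.5, and the FOXP1 peak there at E18.5 was 607 bp. Tbr1 (chr2:61802583-61807715), the regulator of corticothalamic neurons, had 5073 bp for FOXP1 and 2739 bp for ARID1B at E15.5 and 4374 bp for TCF7L2 at E18.5. Fezf2 (chr14:12344190-12347233), a deep layer selector gene, had 2939 bp for FOXP1 at E15.5, 2895 bp for TCF7L2 at E18.5, and no FOXP1 peak at E18.5. In Sox5 and Tle4 the FOXP1 peaks of E15.5 were wider (3600 and 2591 bp) than the TCF7L2 peaks of E18.5 (1662 and 1517 bp). Pax6 (chr2:105686512-105690801), a factor of radial glia, was broad in FOXP1 at E15.5 alone, with 4290 bp against 1127 to 1802 bp for the other TRs in that region. Eomes (chr9:118476050-118478584), a factor of intermediate progenitors, was broad in TCF7L2 at E18.5 alone, with 2535 bp.

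Among the 5 TRs of the study, the genes Bcl11a, Tbr1, and Foxp1 had a broad region at their own promoter, and Arid1b and Tcf7l2 had a promoter peak in all 6 lists but no broad one. The region at Bcl11a (chr11:24075740-24083263, 7524 bp) had E15.5 widths of 2323 bp (ARID1B), 7524 bp (FOXP1), and 3803 bp (TCF7L2), and E18.5 widths of 1944, 905, and 4107 bp. Foxp1 itself (chr6:99520409-99523900) was broad for FOXP1 at E15.5 (3429 bp) and TCF7L2 at E18.5 (3147 bp), and the other 4 lists had 1069 to 1590 bp.

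Regulators of interneurons and of other tissues were examined against the 4.35% of all coding genes. Of 19 autosomal interneuron regulators, 6 (31.6%) had a broad region at the promoter, and 4 of these, Dlx1, Dlx2, Sp9, and Lhx8, were broad for TCF7L2 alone, as were 5 of the 37 cortical regulators and 216 of all 1084 regions (19.9%). Dlx1 (chr2:71527221-71531988) had a 4768 bp TCF7L2 peak at E18.5 and a 2808 bp one at E15.5, with 1057 to 2431 bp for the other TRs where they had a peak. Of 39 regulators of other tissues, 2 (5.13%) had a broad region, Tal1 and Pax7, and both were broad for TCF7L2 at E18.5 alone. The Tal1 region (chr4:115056256-115059376), at a gene of blood and midbrain development, had a 3121 bp TCF7L2 peak at E18.5 with a fold of 5.14, a 1264 bp one at E15.5, and 207 to 431 bp for the other TRs, with no peak of FOXP1 at E18.5. Tlx3 (chr11:33198918-33205260), a selector gene of spinal and brainstem neurons, was wholly inside a region of 6343 bp that was broad for TCF7L2 at E18.5 alone, with 784 to 1837 bp in 4 lists and no FOXP1 peak at E18.5. The region at Sp9 without a promoter (chr2:73275734-73280900) had 5167 bp for TCF7L2 at E18.5 and 217 to 1551 bp elsewhere. Whether cells outside the excitatory lineage gave this signal was not tested.

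Immediate early genes, which are induced within minutes of stimulation, were broad at 9 of 20 promoters (45.0%). All 9 were broad in TCF7L2 at E18.5, and 4 there alone, where 573 and 186 (17.2%) of all 1084 regions were. Jun (chr4:95049743-95054058) had E15.5 widths of 4141, 4131, and 4011 bp and E18.5 widths of 2308, 1876, and 4316 bp, and Nr4a3 (chr4:48044302-48048693) was broad for TCF7L2 at both stages, with 3321 and 4392 bp. The genes of BAF subunits, the complex of ARID1B, gave 8 of 28 (28.6%), where the share of all coding genes was 4.35%. All 8 were broad in FOXP1 at E15.5 and 1, Smarcd3, was broad for ARID1B at that stage, where 757 and 311 of all 1084 regions were. Smarcd3 (chr5:24595512-24599600), a neuronal subunit gene, had a 3339 bp ARID1B peak and a 4089 bp FOXP1 peak at E15.5.

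In the Wnt pathway, 6 of 36 genes (16.7%) had a broad region at the promoter. The share was 4.35% over all coding genes and 7.76% over those with a promoter peak in all 6 lists. Each of the 6 was broad for TCF7L2 at E18.5, 1 of them there alone, and 4 were broad for FOXP1 at E15.5. Over all 1084 regions, 573 were broad for TCF7L2 at E18.5, 186 (17.2%) there alone, and 757 for FOXP1 at E15.5. The count for TCF7L2 at E18.5 alone and that for FOXP1 are thus near the shares over all regions. Axin2, the feedback inhibitor and common reporter of the pathway, had the tallest of these peaks (chr11:108919760-108922907), with a fold of 32.2 for TCF7L2 at E15.5 and 37.5 at E18.5. In that region the folds were 6.06 and then 7.01 for ARID1B, and 9.11 and then 8.21 for FOXP1. The TCF7L2 peaks were thus the tallest there at both stages, with widths of 2729 and 3132 bp. Lef1 (chr3:131109410-131112914), which encodes a relative of TCF7L2, had 3363 and 3424 bp for TCF7L2 and no FOXP1 peak at E18.5. The receptor genes Fzd1, Fzd5, and Fzd7 and the kinase gene Gsk3b made up the rest.

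Of 102 genes associated with autism in people, 32 (31.4%, interval 23.2 to 40.9%) had a broad region at the promoter of the mouse gene, where 4.35% of all coding genes and 7.76% of those with a promoter peak in all 6 lists did, and 96 of the 102 had such peaks. Of the 32, 31 were broad in FOXP1 at E15.5 and 15 there alone, where 757 and 330 of all 1084 regions were. Rai1, a chromatin gene, was broad in 5 lists, with 2828 to 3517 bp in those and 1049 bp in FOXP1 at E18.5. Scn2a (chr2:65667815-65670826), which encodes a sodium channel of excitatory neurons, held the strongest broad FOXP1 peak and the strongest peak of that list. It was 3012 bp wide with a fold of 50.6 at E15.5, and the FOXP1 peak at E18.5 was 781 bp wide with a fold of 21.7, while the lists of the other TRs had folds of 4.83 to 6.02. Housekeeping genes were covered at 9 of 28 promoters (32.1%), Ywhaz in 5 lists and Hnrnpa2b1 in 6, abundant non-coding RNA genes at 7 of 18 (38.9%), and synaptic and adhesion genes at 5 of 28 (17.9%). The share of cortical regulators was the highest of the 10 lists with at least 18 genes, and the intervals of the lists between 16.7% and 45.0% overlap each other. The interval of the cortical regulators also overlaps those of immediate early genes (25.8 to 65.8%) and of abundant non-coding RNA genes (20.3 to 61.4%).

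Broad regions overlapped 1341 annotated genes, 980 of them protein-coding, and wholly contained 116, of which 15 were protein-coding. The median overlapped coding gene was covered over 5.93% of its length, and 84 coding genes over at least 50%. Of protein-coding genes longer than 2500 bp, the most covered were Neurod2 and Tlx3 (100% each), Cwc22 (97.0%), Zfp503 (92.9%), and Fjx1 (92.3%). Zfp503 encodes a transcriptional repressor that acts in the development of striatal and motor neurons. Hes5, an effector of Notch, lay wholly inside a region at chr4:154960218-154965246 that was broad for TCF7L2 at E18.5 alone, with 5029 bp against 1264 to 2247 bp in the other 5 lists.

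Width at the 2 stages follows from how the regions were chosen, since a region that is broad at 1 stage alone is wider there by definition, and the counts are a description. FOXP1 entered with 757 regions broad at E15.5 and 27 at E18.5, TCF7L2 with 218 and 573, and ARID1B with 311 and 150. Among the 349 regions broad for ARID1B at either stage, the widest ARID1B peak was wider at E15.5 in 274 and at E18.5 in 75. For FOXP1 it was wider at E15.5 in 738 of the 744 regions with a peak at both stages, and wider at E18.5 in 6. For TCF7L2 it was wider at E18.5 in 542 of 602 and at E15.5 in 60. The median widths of ARID1B were 2773 and then 2348 bp, those of FOXP1 2909 and then 1127 bp, and those of TCF7L2 2232 and then 2911 bp. Fold moved less, from 7.04 to 7.71 for ARID1B, from 11.6 to 8.50 for FOXP1, and from 7.75 to 8.21 for TCF7L2 in the medians. The deeper list was the wider one for each TR, and the part of depth was not tested.

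The largest differences of width between stages for TCF7L2 were at Tnrc18 (2819 bp early and 8744 bp late, chr5:142816525-142825268), Tlx3 (1837 and 6343 bp), and Rcor2 (1574 and 6028 bp, chr19:7264188-7270215), which encodes a subunit of the CoREST repressor complex. For FOXP1 they were at the Mir9-2 region (10453 and 813 bp), Gm3764 (8974 and 761 bp), and Setd1b (8313 and 919 bp, chr5:123135135-123143547), a histone H3 lysine methyltransferase gene. For ARID1B they were at 2 of the regions around Cwc22 and at Gm14488 (5857 and 2716 bp, chr2:30716456-30723802). The signs of these differences were those of the counts for each TR.

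Regions at no promoter numbered 177. Of these, 69 overlapped no gene, 97 lay within 10 kb of a TSS, and 15 lay more than 50 kb from any. Of the 10 longest, 5 were in the group around Cwc22. The others were the distal chromosome 6 region, that at Sp9, that at Nfe2l3, and a pair of 5006 bp on chromosome 13, at chr13:83712268-83717273 (Mef2c the nearest coding gene, broad for FOXP1 at E15.5 alone) and chr13:84345663-84350668 (Tmem161b nearest, broad for ARID1B and FOXP1 at E15.5). For ARID1B alone, the longest was at chr6:51455911-51460593, overlapping Nfe2l3, with ARID1B peaks of 4667 bp (E15.5) and 2712 bp (E18.5), a FOXP1 peak of 1250 bp at E15.5, a TCF7L2 peak of 321 bp at E18.5, and no peak in the other 2 lists.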

How the data were processed

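The authors aligned single-end reads to GRCm38 (mm10) with BWA (0.7.15 in the submitters' processing notes), removed poorly mapped reads with SAMtools, merged the replicates, and called narrow peaks with MACS2 (2.2.7) against matched input with a constant background. No shift model was built, and each read was lengthened to 200 bp. How duplicates were treated was not stated in the sources at hand. Each deposited list gives peak positions, a fold ratio over background at the summit, −log10 p-values and −log10 q-values (lowest −log10 q of 2.08 to 2.70), and a score, which was not used. The values are the authors' own.

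Here, peaks of at least 2500 bp on chromosomes 1 to 19 were merged where they shared a base, and each was compared with genes, exons, and TSSs of GENCODE vM21 and with the soft-masked reference sequence. Coordinates count from 1. Promoters were the 2000 bp upstream of any TSS. The width of a region in a list is that of its widest peak there. Library depth was recovered from pairs of fold and p-value under the Poisson model of MACS2, with all pairs reproduced within 0.02. Shares carry 95% Wilson intervals, which reflect counting error alone, and peaks close together are not independent. Regions were named by rule: the 10 longest, the widest peak of each list, those broad in all 6 lists, members of gene lists with a broad region (at most 12 a list), the 3 longest for each TR alone, the 10 longest without a promoter, those that contain most genes, the most covered genes, and the 3 with the largest stage difference for each TR. Groups of regions within 25000 bp, the miRNA regions, Fezf2, Sox5, Tle4, Pax6, Eomes, Scn2a, and the strongest peak of each list were chosen after their values were seen. The members and lists were chosen with earlier results of these data known. Merging and overlap code was tested on simulated intervals. Python 3.11.15, numpy 2.4.6, and pandas 2.3.3 were used. Negative-control libraries and peaks of single replicates were not analysed here. A gene that the naming rule selects is not reported here.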

Additional observations from a re-analysis of the deposited data

Results flagged for a closer look

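The report covers chromosomes 1 to 19, and broad peaks were also present on sequences outside it. The mitochondrial genome had 12 broad peaks over the 6 lists, 2 in each, with a widest peak of 6562 bp. The X chromosome had 1 (FOXP1 at E15.5, 2753 bp), the Y chromosome had 2, both of TCF7L2, with a widest of 2626 bp, and the remaining unplaced or unlocalized sequences had 3, all of TCF7L2, with a widest of 4753 bp. No control list stands beside these values.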

How the results depend on the processing

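The counts depend on the width chosen and on the number of peaks taken from each list. At 2000 bp, broad peaks of ARID1B numbered 953 (E15.5) and 493 (E18.5), those of FOXP1 1916 and 104, and those of TCF7L2 606 and 1383, with 2652 regions, 553 with all 3 TRs, 1161 with both stages, 79.7% at a promoter, 2160 protein-coding genes, and 86.0% of cortical regulators. At 3000 bp they numbered 125 and 58, 341 and 14, and 85 and 271, with 493 regions, 66, 190, 86.2%, 409, and 54.0% in the same order. With the 31 widest peaks of every list there were 98 regions, 13 with all 3 TRs, 34 with both stages, and 73 genes. With TSSs of protein-coding transcripts alone, 74.4% of regions were at a promoter. The other 27 of 56 alternative values, among them every value with −log10 p of at least 15, with merging up to 1000 bp, with an overlap of 50% of the shorter peak, with promoters 1000 bp either side of a TSS, and without the FOXP1 list of E18.5 (chosen after seeing the data), stayed within 1.5 times the count or within the interval of the share. No paired analysis was possible because replicates were merged into 1 list for each TR and stage. Depth differs between the lists and limits any comparison of widths between stages.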
